A study of Mus musculus with 18 samples.

Results

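Netrin-1, encoded by Ntn1, and the cell surface receptors it binds were followed across 6 culture groups of mouse embryonic stem (ES) cells grown in Matrigel. The members were chosen by symbol, through the Ensembl identifiers of the count table, and comprised the ligands Ntn1, Ntn3 and Ntn4 and the receptors Unc5a, Unc5b, Unc5c, Unc5d, Dcc, Neo1 and Dscam. Of these 10 genes, 9 had a row among the 49671 genes of the table, namely 2 ligands and 7 receptors. Ntn3 had no row under its identifier and was not analysed here.

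The series asked which signals keep ES cells from forming a polarised epithelium in 3D culture, and poly(A) RNA from 18 samples was sequenced, 3 in each group. Wild-type E14 ES cells (passage 20, strain 12910la in the labels) were embedded at 2000 cells per µl of Matrigel and cultured for 48 h in N2B27 medium with DMSO as the control, with 3 µM of the Gsk3 inhibitor CHIR99021 (CH), with 2i, which is 3 µM CHIR99021 and 0.4 µM of the Mek inhibitor PD0325901, or with Fgf2 at 12 ng/ml together with Activin A at 20 ng/ml (FGF2_Activin). Esrrb fl/fl ES cells with a tamoxifen-inducible Cre (MerCreMer, passage 25, from Acr-EGFP transgenic mice by the labels) were left untreated (Esrrb_NT) or given 4OHT for 1 day (Esrrb_4OHT), and both groups were then cultured for 24 h in 3 µM CHIR99021. All 6 groups had been maintained in 2i and Lif beforehand, both Esrrb groups carry the floxed alleles and the Cre, and 4OHT itself differs between them along with the deletion. The lines differ in origin, passage and time of culture, which cannot be told apart, so no test was made between them.

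Netrins are secreted proteins related to laminins that guide growing axons and migrating cells. Dcc and Neo1 are known mainly for attraction towards netrin-1, and the Unc5 receptors for repulsion. Several of these receptors are also known as dependence receptors, which promote cell death when no ligand is bound and stop doing so when netrin-1 is present, so that the level of the ligand is usually read against the receptors a cell carries.

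In RefSeq's table of mouse start sites (GRCm38.p6), an entry was present for 7 members and missing for Ntn1, Unc5d and Dcc. The 250 bases before the start are shown for the 3 receptors that the results turn on, 5′ to 3′ on the strand of the gene with each CG dinucleotide in capitals, because Unc5b and Unc5a both fell between FGF2_Activin and 2i while Neo1 was not called in any comparison. The Unc5b window is chr10:60831582-60831831 on the minus strand, the Unc5a window is chr13:54949161-54949410 on the plus strand, and the Neo1 window is chr9:59036442-59036691 on the minus strand.
Unc5b: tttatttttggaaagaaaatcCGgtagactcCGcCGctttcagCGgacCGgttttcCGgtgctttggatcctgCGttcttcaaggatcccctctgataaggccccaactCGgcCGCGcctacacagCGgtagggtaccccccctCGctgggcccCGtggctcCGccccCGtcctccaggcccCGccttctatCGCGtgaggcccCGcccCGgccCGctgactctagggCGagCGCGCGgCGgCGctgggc
Unc5a: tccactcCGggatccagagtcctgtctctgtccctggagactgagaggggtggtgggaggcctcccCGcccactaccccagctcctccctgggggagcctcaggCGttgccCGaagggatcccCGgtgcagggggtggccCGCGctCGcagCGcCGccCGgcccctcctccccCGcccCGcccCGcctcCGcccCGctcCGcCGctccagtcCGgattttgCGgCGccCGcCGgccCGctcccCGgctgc
Neo1: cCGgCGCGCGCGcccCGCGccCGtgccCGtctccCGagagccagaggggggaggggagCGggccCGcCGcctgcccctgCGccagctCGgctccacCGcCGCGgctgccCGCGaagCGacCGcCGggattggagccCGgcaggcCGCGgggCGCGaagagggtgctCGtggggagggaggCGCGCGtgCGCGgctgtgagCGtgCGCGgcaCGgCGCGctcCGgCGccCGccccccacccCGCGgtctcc

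All 3 windows were rich in CG. Unc5b had 27 CG dinucleotides, Unc5a 25 and Neo1 45, against a median of 6 over the 32851 windows of the same length in the table. The recognition sequence of Esrrb, searched as TCAAGGTCA on both strands, and its core AAGGTCA, which lies inside it, matched in 0 of the 7 member windows, and so did CTTTGAT and CTTTGAA, the letters bound by the TCF/LEF partners of β-catenin. Over all windows, these letters occurred in 0.387%, 4.08%, 3.21% and 4.46%, respectively. A search of these windows describes their letters only. At such shares, 7 windows are too few for 0 matches to say anything about binding, and Ntn1 had no window. From published ChIP-seq data, the study reports Ntn1 as bound by Esrrb.

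The samples had between 19915222 and 37158661 counts in genes. In every group, replicate 1 stood apart from replicates 2 and 3. The chi-square per gene between same-group libraries was 11.8 to 65.9 for pairs that hold replicate 1 and 1.46 to 8.57 for replicates 2 and 3, so results are also given without replicate 1 of every group where that changes them, an alternative chosen after seeing the data. All 12 markers of ES cell identity were detected in each group, and several marker lists moved with the groups. In CPM (counts per 1000000 after scaling), the summed ES cell markers lay between 2201 and 2527 in DMSO, 3810 and 4690 in CH, 3224 and 3388 in FGF2_Activin, 5779 and 6012 in 2i, 5244 and 5338 in Esrrb_NT and 2832 and 3068 in Esrrb_4OHT. The 6 markers of the post-implantation epiblast summed to 2407 to 3862 CPM in DMSO, 542.3 to 956.1 in CH, 2962 to 3613 in FGF2_Activin, 358.6 to 493.6 in 2i, 1042 to 1407 in Esrrb_NT and 598.3 to 893.7 in Esrrb_4OHT, and 5 of 6 fell both from DMSO to CH and from FGF2_Activin to 2i. Neural markers, summed over 8 genes, were higher in DMSO (45.71 to 135.9 CPM) than in CH (18.94 to 32.77), higher in FGF2_Activin (72.51 to 93.47) than in 2i (16.79 to 48.23), and higher in Esrrb_NT (27.32 to 34.92) than in Esrrb_4OHT (17.13 to 18.46). Trophoblast markers were at 21.69 to 45.31 CPM in DMSO, 76.94 to 124.6 in CH, 19.79 to 24.59 in FGF2_Activin, 38.27 to 62.78 in 2i, 34.41 to 47.95 in Esrrb_NT and 47.64 to 63.03 in Esrrb_4OHT, with Tpbpa under 0.1 CPM throughout, and those of primitive endoderm did not exceed 10.67 CPM in any sample, with Afp under 0.1 CPM throughout. Markers of primitive streak and mesoderm, summed over 8 genes, lay between 462 and 694.7 CPM in CH, 87.12 and 120.2 in 2i, 10.28 and 14.92 in DMSO, and 13.23 and 19.09 in FGF2_Activin. They lay between 434.1 and 554.7 CPM in Esrrb_4OHT and between 86.41 and 107.2 in Esrrb_NT, with Gsc under 0.1 CPM in all groups but 2i and Mesp1 under it in all but Esrrb_4OHT. A sum can hide members that moved the other way. Utf1, Ascl2 and Eomes were called lower between DMSO and CH (-1.50, -1.27 and -2.08 on the log2 scale) while their lists rose in sum. The same 3 were called lower between FGF2_Activin and 2i. After 4OHT, Fgf5 was called higher (2.62) while the epiblast sum fell, and Kdr lower (-2.54) while the streak sum rose. The part of these cell states in the results was not tested, and in bulk RNA a change in the share of cells and a change in RNA per cell cannot be told apart.

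Ntn1, on the minus strand of chr11:68209364-68400823 (GRCm38), was the member with the widest range, and none of its exons overlapped another gene. In DMSO it had 178, 57 and 69 counts in replicates 1 to 3, and in CH 7369, 10654 and 9220. In FGF2_Activin it had 12, 23 and 17 counts, and in 2i 6003, 12524 and 11515. The 6 wild-type samples with the Gsk3 inhibitor were far above the 6 without it, with no overlap, whereas CH and 2i overlapped each other. After scaling, the mean level of Ntn1 was 323 ± 62.8 CPM in CH and 313 ± 90.0 in 2i, against 3.07 ± 1.53 in DMSO and 0.57 ± 0.198 in FGF2_Activin (SD, n = 3 each).

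**Figure D1:**
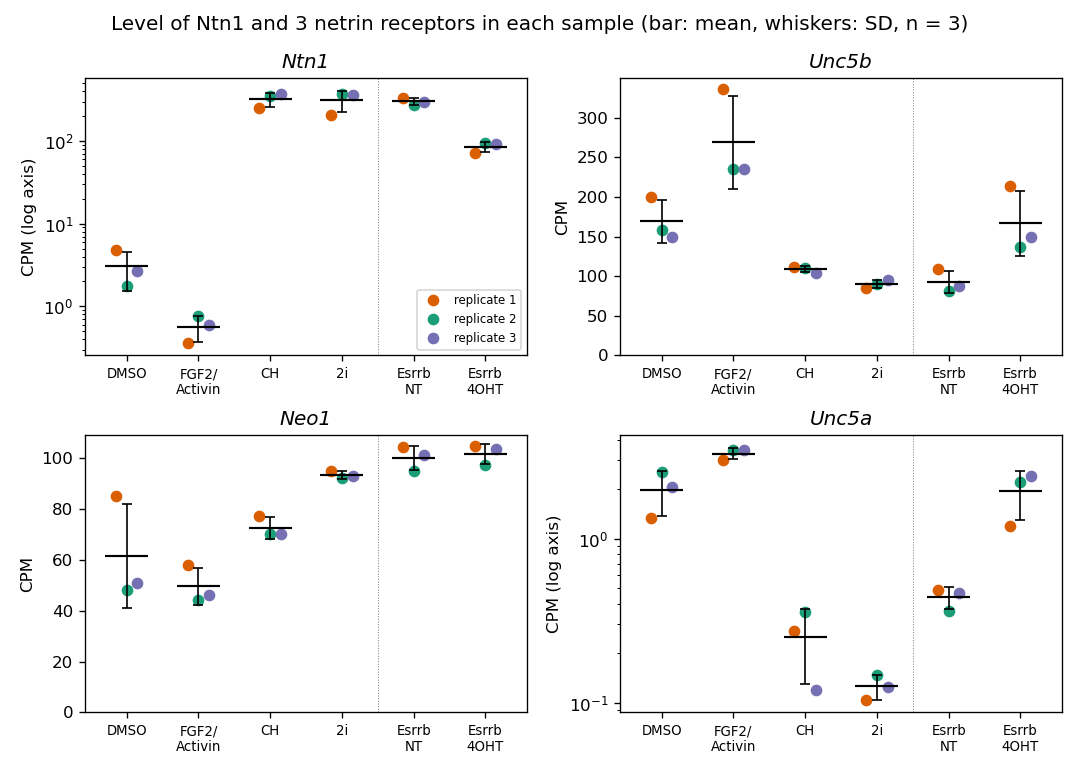
Level in CPM of Ntn1, Unc5b, Neo1 and Unc5a in each of the 18 samples, by group, with Ntn1 and Unc5a on log axes; points are samples coloured by replicate, bars are means and whiskers SD (n = 3). Ntn1 sat between 209 and 370 CPM in CH and 2i and under 5 CPM in DMSO and FGF2_Activin, and Unc5a lay the other way round.

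Between CH and DMSO, which by the labels differ by the Gsk3 inhibitor, 1 of the 5 members tested rose and 1 fell, where 7.51% of the 16413 genes tested rose and 10.2% fell. Calls required both an adjusted p under 0.01 and a log2 fold change beyond 1 in size. Ntn1 was the one that rose, by a log2 fold change of 6.69 ± 0.38 (SE, edgeR's quasi-likelihood test, Benjamini-Hochberg adjusted p = 3.31e-07), and it was higher in 3 of 3 CH samples. Without replicate 1 of every group the log2 fold change was 7.36. The study shortlisted Ntn1 from these samples, so its direction here and in the Esrrb comparison is not independent evidence. Between 2i and FGF2_Activin, where 9.13% of the genes tested rose and 14.4% fell, 1 member rose and 2 fell, and the log2 fold change of Ntn1 was 9.10 ± 0.45 (SE, edgeR's quasi-likelihood test, adjusted p = 7.18e-08).

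Between 2i and CH, which differ by the Mek inhibitor, 0.317% of the genes tested rose and 1.67% fell, and 0 of the 5 members were called by edgeR or DESeq2, with 1 at an unadjusted p under 0.05. The log2 difference in Ntn1 was -0.05 ± 0.29 (SE), which did not pass edgeR's quasi-likelihood test (Benjamini-Hochberg adjusted p = 0.966). Among the cultures without the Gsk3 inhibitor, 0.902% of genes rose and 0.347% fell between DMSO and FGF2_Activin, and 0 members were called by edgeR, with 2 higher and 1 lower at an unadjusted p under 0.05 and 1 called lower by DESeq2. DESeq2 called 126 of 18796 genes lower. For the counts at an unadjusted p, here and between 2i and CH, no share of all genes was computed. Ntn1 was 5.39-fold lower in mean CPM in FGF2_Activin than in DMSO, and the groups did not overlap. This log2 fold change of -2.46 ± 0.47 missed the threshold narrowly in edgeR's quasi-likelihood test (adjusted p = 0.0128). In a fit that paired the samples by replicate number (the replicate block) it was -2.51 and passed (edgeR's adjusted p = 0.00858), and without replicate 1 of every group it was -1.68 and passed (edgeR's adjusted p = 9.99e-05), the DMSO library with 178 counts being one of those left out.

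Esrrb, an orphan nuclear receptor and the gene targeted in the other line, had 2680, 2146 and 2109 counts in Esrrb_NT and 1211, 1333 and 1250 in Esrrb_4OHT. The groups did not overlap, but the transcript was only reduced, by a log2 fold change of -0.99 ± 0.10 (SE, edgeR's quasi-likelihood test, adjusted p = 7.44e-05), which is just short of the minimum fold change. A floxed allele can still give reads from exons outside the deleted part, so these gene counts do not measure how complete the deletion was. In the wild-type cultures Esrrb was at 320.8 CPM in CH and 549.7 in 2i, against 15.39 in DMSO and 14.07 in FGF2_Activin.

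In the same samples, Ntn1 had 6228, 5320 and 5639 counts in Esrrb_NT and 1478, 2002 and 1939 in Esrrb_4OHT. Every 4OHT sample was below every untreated one. The mean level was 301 ± 29.8 CPM in Esrrb_NT and 85.4 ± 12.6 in Esrrb_4OHT (SD, n = 3 each), a 3.53-fold difference. Ntn1 fell by 1.78 ± 0.11 on the log2 scale (SE, edgeR's quasi-likelihood test, Benjamini-Hochberg adjusted p = 7.15e-06), in a comparison in which 1 of the 4 members tested fell and 1 rose, against 3.87% and 12.8% of the 14893 genes tested. The 70.95 to 94.24 CPM of the 4OHT samples exceeded the 1.79 to 4.77 CPM of DMSO in the wild-type line, a difference across lines that was not tested.

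Ntn4, a netrin known mainly as a component of basement membranes, was close to absent and did not pass the filter on low counts. It had 9, 4 and 3 counts in DMSO, 5, 4 and 4 in FGF2_Activin, 4, 1 and 1 in CH and 0 in all 3 samples of 2i. In the other line, it had 3, 5 and 2 counts in Esrrb_4OHT and 0 in all 3 samples of Esrrb_NT. With the group at 0 set to a floor of 3 counts, Ntn4 was 4.45-fold lower in 2i than in FGF2_Activin. On the same footing it was 3.005-fold higher in Esrrb_4OHT than in Esrrb_NT. These folds leave out the counting error of the other group, so they are not lower bounds. In an edgeR fit without the filter, the first difference passed the threshold (adjusted p = 0.00432) and the second did not (adjusted p = 0.0204).

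Among the receptors, Unc5b was the most abundant. It lies on the minus strand of chr10:60762593-60831581, is best known from endothelial cells, and had 7469, 5050 and 3848 counts in DMSO and 3271, 3381 and 2608 in CH. In FGF2_Activin it had 11140, 7133 and 6757 counts, and in 2i 2447, 3072 and 3024. In CPM the order was FGF2_Activin (269 ± 58.7), DMSO (169 ± 27.2), CH (109 ± 3.88) and 2i (90.1 ± 4.66; SD, n = 3 each), and no neighbouring groups overlapped.

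Unc5b fell between FGF2_Activin and 2i, with a log2 fold change of -1.57 ± 0.15 (SE, edgeR's quasi-likelihood test, adjusted p = 6.30e-06). Between CH and DMSO it was -0.63 ± 0.14 (edgeR's adjusted p = 0.0044), between FGF2_Activin and DMSO 0.67 ± 0.14 (edgeR's adjusted p = 0.022) and between 2i and CH -0.27 ± 0.14 (edgeR's adjusted p = 0.344). None of these passed, the first for its size only. In the Esrrb line, Unc5b had 2024, 1578 and 1680 counts without 4OHT and 4456, 2904 and 3170 with it. The groups did not overlap, and the log2 fold change of 0.88 ± 0.17 stayed under the minimum of 1 (SE, edgeR's quasi-likelihood test, adjusted p = 0.00195), which it exceeded without Esrrb_NT replicate 1 (1.01, edgeR's adjusted p = 0.00151). Replicate 1 was the highest sample of both groups, at 108.6 CPM without 4OHT and 213.9 with it. That fit is one-sided, since it left out the highest untreated sample and kept the highest treated one.

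Unc5a, the family member known best from neurons, was far scarcer than Unc5b, with a mean of 0.321 against 23.9 CPM per kilobase of exon, and its changes were wider. It had 50, 81 and 53 counts in DMSO and 99, 105 and 99 in FGF2_Activin, against 8, 11 and 3 in CH and 3, 5 and 4 in 2i. Among the wild-type cultures, the samples with the Gsk3 inhibitor were all below those without it. In Esrrb_4OHT, which also held the inhibitor, Unc5a was at 1.2 to 2.395 CPM, within the range of DMSO (1.339 to 2.538 CPM) but for its lowest sample. Unc5a fell by 2.92 ± 0.35 on the log2 scale between DMSO and CH (SE, edgeR's quasi-likelihood test, adjusted p = 6.93e-05) and by 4.66 ± 0.38 between FGF2_Activin and 2i (edgeR's adjusted p = 2.58e-06). It had 9, 7 and 9 counts in Esrrb_NT and 25, 47 and 51 in Esrrb_4OHT, and rose by a log2 fold change of 2.17 ± 0.35 (SE, edgeR's quasi-likelihood test, adjusted p = 7.66e-04). This call was lost when the fold threshold was built into the test (edgeR's glmTreat, adjusted p = 0.0178), and Unc5a did not enter the fit that required 10 counts in every sample. Of its exon bases, 0.816% overlap Hk3 on the other strand, and the libraries were counted without strand.

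Neo1, on the minus strand of chr9:58874687-59036441, is a relative of Dcc that also binds the repulsive guidance molecules, and it was the second most abundant receptor. It had 3185, 1541 and 1320 counts in DMSO, 2273, 2149 and 1754 in CH, 1923, 1347 and 1329 in FGF2_Activin and 2730, 3123 and 2979 in 2i. DMSO overlapped both CH and FGF2_Activin, with replicate 1 of DMSO well above the other two, and in CPM the 2i samples were above all other wild-type samples. Neo1 was not called in any of the 5 comparisons.

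Its log2 fold change came nearest to a call between 2i and FGF2_Activin, at 0.92 ± 0.19 (SE, edgeR's quasi-likelihood test, adjusted p = 0.00178). Without replicate 1 of every group this was 1.04, past the minimum of 1 (edgeR's adjusted p = 2.15e-10), and it was 1.05 without FGF2_Activin replicate 1 alone (edgeR's adjusted p = 0.00224). Between CH and DMSO it was 0.24 ± 0.19 (edgeR's adjusted p = 0.326), and 0.51 without replicate 1 of every group (edgeR's adjusted p = 9.26e-07). In the Esrrb line the level was 100.2 ± 4.78 CPM without 4OHT and 102 ± 3.95 with it (SD of 3 samples per group), a log2 fold change of 0.06 ± 0.06 (edgeR's adjusted p = 0.386).

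Dscam, an immunoglobulin superfamily receptor that can bind netrin-1, had 4 to 45 counts in the 18 samples. It passed the filter in the wild-type fit only, in which its log2 fold changes ranged from -0.12 to 0.59 and none passed the test. Unc5d had 0, 2 and 2 counts in DMSO and 6, 12 and 10 in CH. These groups did not overlap, and in the edgeR fit without the filter Unc5d passed (log2 fold change 2.86, adjusted p = 0.00641), although it was 0 to 15 counts in every sample. Unc5c had 0 to 8 counts in any sample.

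Dcc, the receptor classically paired with netrin-1, had 5 counts over all 18 samples and was at 0 in 15 of them. It was listed at 0 in every sample of 2i, Esrrb_4OHT and Esrrb_NT. At this depth no level of Dcc could be compared between groups.

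**Figure D2:**
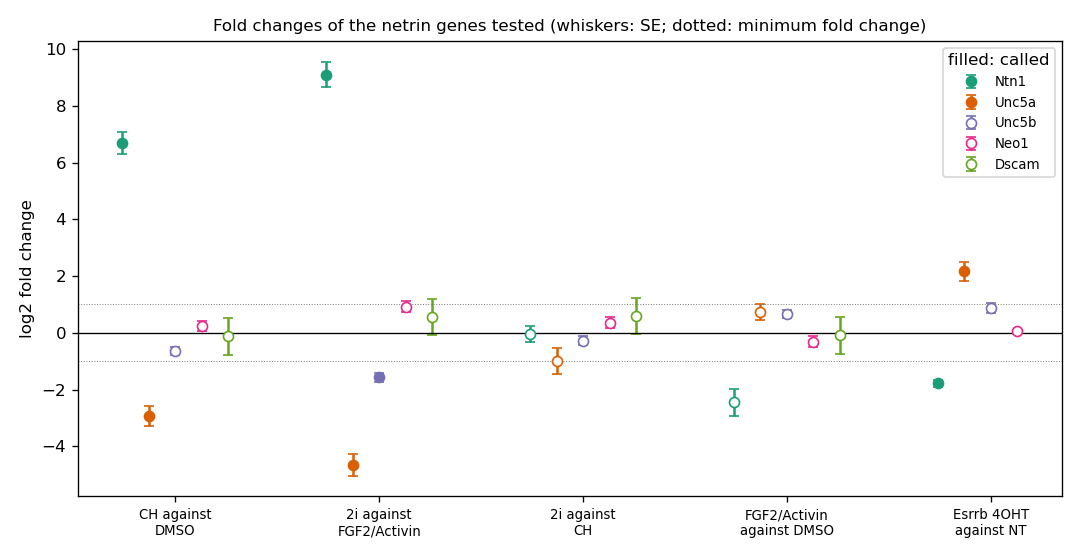
Log2 fold change of the 5 members that passed the filter, in the 5 comparisons, with SE as whiskers; filled points were called and dotted lines mark the minimum log2 fold change of 1. Ntn1 and Unc5a lie on opposite sides of 0 in CH against DMSO (6.69 and -2.92), in 2i against FGF2_Activin (9.10 and -4.66) and in Esrrb_4OHT against Esrrb_NT (-1.78 and 2.17).

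To set the ligand against its receptors, counts were divided by the length of each gene's exons. In these units of CPM per kilobase, Unc5b and Neo1 together held 98.2% to 99.4% of the summed level of the 7 receptors in the group means, and Unc5a no more than 1.66%. The division between the main pair shifted with the culture. Unc5b held 86.6% ± 1.09 of the receptor sum in FGF2_Activin, 78.2% ± 2.18 in DMSO, 67.2% ± 0.853 in CH and 56.9% ± 1.42 in 2i (SD, n = 3 each). It held 55.8% ± 2.65 in Esrrb_NT and 67.9% ± 4.79 in Esrrb_4OHT. The remainder was nearly all Neo1, which held 11.6% of the sum in FGF2_Activin and 42.4% in 2i, a description for which no test was made.

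The receptor sum varied little beside the ligand. It was 34.6 ± 6.51 CPM per kilobase in DMSO, 25.9 ± 0.951 in CH, 49.5 ± 10.1 in FGF2_Activin and 25.3 ± 0.694 in 2i (SD, n = 3 each). Per kilobase, Ntn1 was at 0.49 in DMSO and 51.4 in CH. Thus in DMSO the receptor sum exceeded Ntn1 55.5-fold, 110.8-fold and 71.2-fold in the 3 samples, and in FGF2_Activin by 361-fold to 1060-fold. In CH the order was the reverse, with Ntn1 at 1.49, 2.14 and 2.36 times the receptor sum, and in 2i it was at 1.35, 2.33 and 2.21 times. No sample of the cultures without the Gsk3 inhibitor came near those with it.

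In the Esrrb line the order of ligand and receptors changed with 4OHT. Ntn1 stood at 1.80, 1.82 and 1.82 times the receptor sum in the samples of Esrrb_NT and at 0.243, 0.446 and 0.399 times in those of Esrrb_4OHT. With 4OHT the receptor sum was above the ligand in each of the 3 samples. The receptor sum was 26.5 ± 2.75 CPM per kilobase in Esrrb_NT and 38.9 ± 6.80 in Esrrb_4OHT, and Ntn1 was 48.0 ± 4.75 and 13.6 ± 2.01 (SD, n = 3 each), with no overlap on either side of the ratio. These are levels of RNA, and proteins were not measured in these files.

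**Figure D3:**
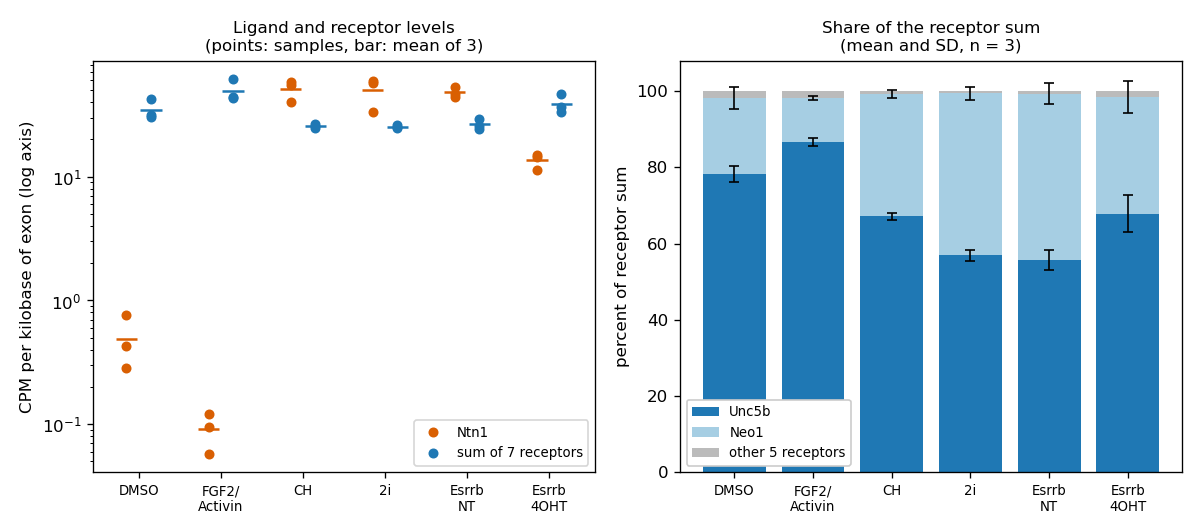
Left, CPM per kilobase of exon (log axis) of Ntn1 and of the sum of 7 receptors in each sample by group, with bars at the means; right, mean percent of the receptor sum held by Unc5b, Neo1 and the other 5 receptors, with SD as whiskers (n = 3). Ntn1 was above the receptor sum in CH, 2i and Esrrb_NT and below it in DMSO, FGF2_Activin and Esrrb_4OHT, and the share of Unc5b was highest in FGF2_Activin at 86.6%.

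The other genes of the pathway were taken from 4 lists. Inside the cell, 29 of the 30 genes that carry signals from Dcc, Neo1 and Unc5 were tested, and 2 rose and 2 fell between CH and DMSO, with a median log2 fold change of -0.10 where all genes had -0.002. These shares, 2 of 29 each way, are near the 7.51% and 10.2% of all genes. Trim67, a ubiquitin ligase known to work with Dcc, was the one that moved most. It had 5, 3 and 1 counts in DMSO and 668, 470 and 239 in CH, but also 563, 305 and 258 in FGF2_Activin, and only 34, 17 and 17 in 2i. Unlike Ntn1, it was thus high in one culture with the Gsk3 inhibitor and in one without it, and it was called in all 5 comparisons.

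Trim67 rose by a log2 fold change of 7.35 ± 0.57 between DMSO and CH (SE, edgeR's quasi-likelihood test, adjusted p = 3.06e-06) and of 6.94 ± 0.57 between DMSO and FGF2_Activin (edgeR's adjusted p = 5.35e-05). It was lower in 2i than in CH (-4.44 ± 0.45, edgeR's adjusted p = 3.81e-04) and lower in 2i than in FGF2_Activin (-4.03 ± 0.45, edgeR's adjusted p = 2.38e-05). In the Esrrb line it had 4, 4 and 14 counts without 4OHT and 414, 542 and 548 with it, and rose by 5.96 ± 0.30 (SE, edgeR's quasi-likelihood test, adjusted p = 2.56e-06), while Ntn1 fell. None of these pairs of groups overlapped.

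Trio, an exchange factor that activates Rac below Dcc, was at 198 ± 9.88 CPM in DMSO and 181 ± 21.6 in FGF2_Activin, against 19.0 ± 3.49 in CH and 4.89 ± 1.73 in 2i (SD, n = 3 each). It fell by 3.37 on the log2 scale between DMSO and CH (edgeR's quasi-likelihood test, adjusted p = 9.88e-07), by 5.19 between FGF2_Activin and 2i (edgeR's adjusted p = 5.78e-08) and by 1.95 between CH and 2i (edgeR's adjusted p = 7.35e-04). In the Esrrb line its log2 fold change of 0.59 did not pass (edgeR's adjusted p = 0.0177). Pard6b, a partner of the polarity proteins, fell in both CH against DMSO (-1.51) and 2i against FGF2_Activin (-1.23), and Ablim1, an actin-binding protein, rose in both (1.57 and 2.45). Prkca, a kinase that acts on Unc5 trafficking, rose between FGF2_Activin and 2i (1.43), and Enah, an actin regulator, fell by 1.20 after 4OHT.

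At the cell surface, 17 of the 18 partners were tested in the wild-type cultures. Between CH and DMSO, 1 rose and 3 fell, against 7.51% and 10.2% of all genes, and the median log2 fold change was -0.83 against -0.002. Itga3, an integrin subunit, fell from 40.2 ± 9.82 CPM in DMSO to 2.84 ± 1.05 in CH (SD, n = 3 each), which was -3.81 on the log2 scale (edgeR's quasi-likelihood test, adjusted p = 2.34e-06). It rose by 2.99 in the Esrrb line after 4OHT (edgeR's adjusted p = 9.48e-06), the same pair of directions as Unc5a. Flrt1, which can bind Unc5 receptors, and Lrrc4, the partner of netrin-G2, fell with CH (-3.71 and -2.86), while Flrt3 rose (2.09). Flrt1 was near the floor, with 15, 18 and 15 counts in DMSO and 1, 1 and 1 in CH.

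Between 2i and FGF2_Activin, 2 of the 17 surface partners rose and 6 fell, against 9.13% and 14.4% of all genes, with a median log2 fold change of -0.96 against 0.002. Those that rose were Flrt3 (1.95) and Mcam, an adhesion molecule (1.17). The 3 that fell furthest were Flrt1 (-4.45), Itga3 (-4.40) and Adgrl3, a latrophilin that binds Flrt proteins (-2.53). Flrt1 was near the floor here too, with 5, 10 and 14 counts in FGF2_Activin and 1, 0 and 0 in 2i. In the Esrrb line, 5 of 16 rose and 1 fell after 4OHT, against 12.8% and 3.87% of all genes, with a median of 0.67 against 0.002. Dscaml1, a relative of Dscam (3.18), Itga3 (2.99) and Itgb4 (2.78) rose furthest, and Itga6 fell by 1.00.

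Of the other netrins and secreted partners, 5 of 7 were tested in the wild-type cultures. Ntng2, a membrane-anchored netrin that binds neither Dcc nor Unc5, fell from 3.99 ± 0.721 CPM in DMSO to 0.223 ± 0.146 in CH (log2 fold change -4.13, edgeR's quasi-likelihood test, adjusted p = 3.79e-05) and was 5.00 lower on the log2 scale in 2i than in FGF2_Activin, opposite to Ntn1. Rgma, a ligand of Neo1, rose between FGF2_Activin and 2i (1.78). Of 9 genes that carry death signals from these receptors, 1 fell in each of these comparisons and 0 rose in edgeR's test, a share near the 10.2% and 14.4% of all genes that fell. At an unadjusted p under 0.05, 2 were higher and 2 lower between CH and DMSO, and 2 higher and 3 lower between 2i and FGF2_Activin. No share of all genes was computed for these counts. The gene that fell was Dapk1, a kinase known to act with Unc5b, which fell by 1.20 between DMSO and CH (edgeR's adjusted p = 8.82e-05) and by 1.12 between FGF2_Activin and 2i (edgeR's adjusted p = 9.87e-05). After 4OHT its log2 fold change of 0.997 just missed the minimum (edgeR's adjusted p = 2.59e-04). In that comparison 0 of the 9 genes were called by edgeR, where 12.8% of all genes rose and 3.87% fell. At an unadjusted p under 0.05, 5 were higher and 3 lower, a count for which no share of all genes was computed. The comparison was broadly changed: with no minimum fold change, 3664 of 14893 genes were higher and 2957 lower at an adjusted p under 0.01 in edgeR.

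**Figure D4:**
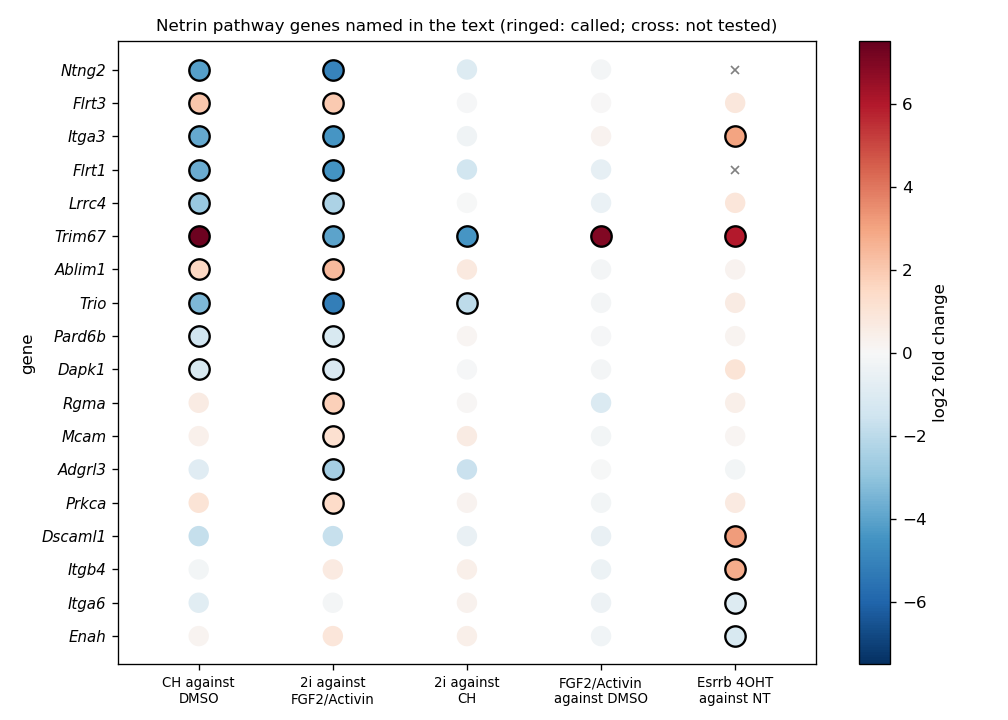
Log2 fold change, as colour, of the 18 pathway genes named by the rule in the 5 comparisons; rings mark genes called and crosses genes not tested. Trim67 was called in all 5 columns, in both directions, and most other genes were called in CH against DMSO, in 2i against FGF2_Activin or in the Esrrb line only.

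The genes whose levels ran most like those of Ntn1 over the 18 samples were Pdgfa, Tdh, Slc18b1, Csrnp3 and Pepd, with Pearson's r of 0.994, 0.990, 0.988, 0.987 and 0.986 in log2 CPM among 11043 genes that averaged 100 counts or more. Pdgfa, a growth factor ligand, was at 9.08 CPM in DMSO and 124 in CH, and at 150.5 in Esrrb_NT and 82.7 in Esrrb_4OHT. The 18 samples share culture groups and lines and are not 18 independent conditions, so these values are a description. Over the same samples, r with Ntn1 was -0.865 for Unc5b and 0.800 for Neo1. Most like Unc5b were Tnfrsf12a (0.940) and Ogfr (0.931).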

How the data were processed

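RNA from 18 samples in 6 groups of 3 was sequenced by the authors from libraries of a directional kit, aligned to mm10 with TopHat2 and counted per Ensembl gene of GRCm38 with HTSeq, without strand. The deposited values are these raw counts. Groups and replicate numbers came from the sample labels, which do not say whether replicates were separate cultures, so p-values measure the spread between these samples.

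Counts were tested with edgeR 4.0.16 (limma 3.58.1, R 4.3.3) by glmQLFit and glmQLFTest after TMM scaling and filterByExpr, in one fit for the 12 wild-type samples and another for the 6 of the Esrrb line. Calls required a p under 0.01, adjusted over all genes tested by Benjamini-Hochberg, and a log2 fold change beyond 1 in size. On simulated counts for CH against DMSO, 190 of 200 changed genes were recovered among 16038. The changed genes were drawn from well-counted genes, with changes beyond the minimum and no effect shared by replicate number. This recovery therefore does not cover Unc5a or changes near the minimum. CPM used TMM over the 18 samples, and levels per kilobase used the union of annotated exons (GENCODE M21). Exon overlaps were checked for the members only. The precision is set by 19915222 to 37158661 counts per sample, and floors of 3 counts cover only the counting error of a group at 0.

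Named were all 10 members, for each pathway list and comparison up to 3 genes called in each direction with the largest change, the 5 genes most like Ntn1 and 3 most like the leading receptor, of which 1 is not reported here, and Esrrb. Members and lists were chosen with earlier results of these data known, and no p-value was adjusted over a list alone. The replicate numbers come from the sample titles. Same-numbered samples deviated together, with every correlation over 0.1 (means of 0.442 to 0.762 across genes, by comparison), so the numbers were taken to pair the samples. The methods of the study name no block, and the block was fitted as an alternative. The SE, p-values and shares of all genes given as main results thus ignore this pairing, and what replicates share stays in their spread. Between CH and DMSO, 1522 of 16413 genes rose and 2086 fell with the block, against 1233 and 1674 without it. The other alternatives were DESeq2 1.42.0 (size factors, or its test), no filter, at least 10 counts in every sample, the 6 samples compared, no minimum fold change, glmTreat, the longest transcript as length, and each replicate left out.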

Additional observations from a re-analysis of the deposited data

How the results depend on the processing

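No called log2 fold change of a member changed direction under any alternative run. Of 346 alternative values for 24 fold changes, 334 stayed on the same side of the threshold, 11 passed it where the reported fit did not, and 1 no longer passed. Between CH and DMSO, the members that rose became 2 without the filter and with the DESeq2 test (1 to 2 with replicates left out singly, 2 without CH replicate 1 or DMSO replicate 3, and 2 without replicate 1 of every group), and those that fell became 0 with at least 10 counts in every sample and 2 with no minimum fold change. Over all genes, 1306 of 29782 rose without the filter and 1391 of 19374 with the DESeq2 test. It was 1180 of 16765 without CH replicate 1, 1013 of 16796 without DMSO replicate 3 and 1600 of 16428 without replicate 1 of every group. Those that fell were 955 of 12935 with at least 10 counts in every sample and 2504 of 16413 with no minimum fold change. Between 2i and FGF2_Activin, the members that rose became 2 with no minimum fold change and without replicate 1 of every group (1 to 2 with replicates left out singly, 2 without FGF2_Activin replicate 1), and those that fell became 1 with at least 10 counts in every sample and 3 without the filter and with the DESeq2 test. Over all genes, 2922 of 16413 rose with no minimum fold change. It was 1775 of 16428 without replicate 1 of every group and 1388 of 16740 without FGF2_Activin replicate 1. Those that fell were 1333 of 12935 with at least 10 counts in every sample, 2499 of 29782 without the filter and 2630 of 20528 with the DESeq2 test. Between FGF2_Activin and DMSO, Ntn1 was the 1 member called lower without the filter (log2 fold change -2.44), with the DESeq2 test (-2.43), with the replicate block (-2.51) and without replicate 1 of every group (-1.68). With replicates left out singly it ranged from -2.73 to -1.95, with 0 to 1 members called and the call made without DMSO replicate 2. Over all genes, 68 of 29782 were lower without the filter, 126 of 18796 with the DESeq2 test and 149 of 16413 with the replicate block. It was 181 of 16428 without replicate 1 of every group and 42 of 16733 without DMSO replicate 2. After 4OHT, the members that rose became 0 with at least 10 counts in every sample and with glmTreat, and 2 with no minimum fold change (1 to 2 with replicates left out singly, 2 without Esrrb_NT replicate 1). Over all genes, 1292 of 13142 rose with at least 10 counts in every sample and 793 of 14893 with glmTreat. It was 3664 of 14893 with no minimum fold change and 1780 of 15283 without Esrrb_NT replicate 1. A filter of 10 counts in every sample removes Unc5a. Without any filter, the added members were Unc5d between CH and DMSO and Ntn4 between 2i and FGF2_Activin. With no minimum fold change they were Unc5b between CH and DMSO, Neo1 between 2i and FGF2_Activin, and Unc5b after 4OHT. The cause of the other shifts was not tested. With the longest transcript as length, 16 of 71 levels, shares and ratios moved by more than 1 SD, and with DESeq2 size factors 0 of 54 did. The exon union and longest transcript were 6258 and 5869 bases for Unc5b, and 8716 and 7379 for Neo1. The SDs given for their shares of the receptor sum do not cover this choice of length. The replicate block, which pairs the samples, changed no other call of a member. Reads from Ntn4, Unc5c, Unc5d and Dcc were too few to order the groups by level.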
